A study of Mus musculus with 12 samples.

Results

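Fc gamma receptors and their signalling partners were described here as 9 mouse genes. They were chosen by name, with earlier results of these data known, so shares over all genes set beside them are description only. Each was found once among the 32285 genes of a retina table and the 55401 genes of a table of cultured brain cells. The 9 are Fcgr1, Fcgr3, Fcgr4, Fcgr2b, Fcer1g, Tyrobp, Trem1, Trem2 and Syk. Bulk RNA was sequenced from wild-type mouse material in 4 groups of 3 libraries. The first group was retina 1 day after optic nerve crush (ONC in the labels) with mesenchymal stem cell vesicles of the small extracellular kind (MSC.sEV), given i.o., an abbreviation left unexplained, and its control was retina 1 day after the same crush with phosphate-buffered saline (PBS). The other pair was cells labelled brain microvascular pericytes, marked P4, given MSC.sEV or PBS for 12 hours. Every retina group therefore carried the crush, and no group was untouched by it. Strain, age and the source of the stem cells are not given. Nor is it stated that replicate libraries are separate animals or cultures, so p-values measure the spread between these libraries, which may be technical.

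Fc gamma receptors are surface proteins of leukocytes that bind the constant part of IgG. Fcgr1, Fcgr3 and Fcgr4 encode activating receptors, which signal through the common gamma chain encoded by Fcer1g. That chain, like the adaptor encoded by Tyrobp (DAP12), carries an immunoreceptor tyrosine-based activation motif (ITAM). Once Src family kinases phosphorylate the motif, the kinase encoded by Syk docks on it and starts phagocytosis, oxidative burst and cytokine release. Fcgr2b encodes the inhibitory receptor, whose own motif recruits phosphatases that damp the same signal. The receptors encoded by Trem1 and Trem2 bind no IgG and signal through the Tyrobp adaptor. Trem1 is known from neutrophils and monocytes, where it amplifies inflammation, and Trem2 from microglia and tissue macrophages, where it senses lipids and apoptotic material. In the nervous system microglia are the usual resident source of most of these mRNAs, Trem1 apart.

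Levels are in CPM, gene counts scaled for library depth with TMM factors, and log2 fold changes are vesicles over PBS ± SE. A gene was called at a Benjamini-Hochberg adjusted p under 0.05 in edgeR's quasi-likelihood test over all genes of a table. Retina libraries held 15580024 to 16842926 counts and pericyte-labelled libraries 33001248 to 37954077. The floor of 3 counts per library equals 0.18 to 0.196 CPM for retina and 0.0778 to 0.0895 CPM for the cultures. Retina columns carried only short names, read here by inference as vesicles and PBS, so each retina direction given here depends on that reading. Were the columns taken as PBS uninjured retina instead, every retina difference would include the crush. Crystallins and other lens genes took 1.88%, 7.17% and 0.0119% of the counts of vesicle retina libraries 1, 2 and 3, against 0.7%, 0.0739% and 0.0646% in the PBS libraries. The per-gene retina fit was also run without vesicle library 2 and PBS library 1, the most lens-rich of their groups, but the count ratio and the comparison with the cultures were not. The cultures held abundant astrocyte mRNAs, and several pericyte markers were near 0 while others were expressed. These cells are therefore called pericyte-labelled here.

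In the crushed retina, 8 of the 9 genes were higher with vesicles and Trem2 was not. Fcgr1, Fcgr3, Fcgr4, Fcgr2b, Fcer1g, Tyrobp, Trem1 and Syk rose by between 2.14 and 5.3 on the log2 scale, while Trem2 had a log2 fold change of -0.91 that missed the threshold. Of all 15440 tested retina genes 15.9% were called, 10.7% higher and 5.19% lower. None of the 9 was called lower by edgeR, by DESeq2 or by limma voom (0 each), and 1 had an unadjusted p under 0.05 in that direction. In the pericyte-labelled cultures 7 of the 9 genes passed the filter on low counts, and 0 of them were called by edgeR in either direction, against 19.8% of 16975 tested genes, 10.9% called higher and 8.9% called lower. DESeq2 and limma voom also called 0 there, and 2 of the 7 had an unadjusted p under 0.05. The bulk counts cannot tell more cells of a kind from more RNA per cell.

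Promoter sequence of 4 genes is shown because 3 of them moved together in the retina and the other did not. Each is the 250 bases before the annotated start in RefSeq on build GRCm38.p6, written along the gene's strand. RefSeq windows were matched by symbol for 8 of the 9 genes. Capitals mark 3 motifs searched on both strands. They are GAGGAA (the core bound by PU.1, a transcription factor of myeloid cells), TTCNNNGAA (the STAT element) and TGANTCA. The last is a loose form of the AP-1 element, with any base allowed in its centre. Fcgr1 lies at chr3:96293970-96294219 on the minus strand, Fcgr3 at chr1:171059404-171059653 on the minus strand, Trem1 at chr17:48232489-48232738 on the plus strand and Trem2 at chr17:48346151-48346400 on the plus strand.
Fcgr1: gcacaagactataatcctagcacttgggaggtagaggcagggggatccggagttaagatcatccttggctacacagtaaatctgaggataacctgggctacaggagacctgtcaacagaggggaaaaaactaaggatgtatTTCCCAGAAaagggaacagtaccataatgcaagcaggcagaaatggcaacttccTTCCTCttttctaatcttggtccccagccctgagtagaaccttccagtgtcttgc
Fcgr3: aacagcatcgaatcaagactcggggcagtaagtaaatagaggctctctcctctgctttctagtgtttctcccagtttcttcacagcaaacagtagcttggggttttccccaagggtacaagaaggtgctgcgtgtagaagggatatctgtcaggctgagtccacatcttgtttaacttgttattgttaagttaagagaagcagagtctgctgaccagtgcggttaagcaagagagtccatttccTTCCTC
Trem1: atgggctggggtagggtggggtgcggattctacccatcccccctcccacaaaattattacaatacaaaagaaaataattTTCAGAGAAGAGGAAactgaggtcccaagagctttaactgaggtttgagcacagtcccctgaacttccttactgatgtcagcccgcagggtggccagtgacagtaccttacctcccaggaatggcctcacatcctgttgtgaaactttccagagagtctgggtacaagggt
Trem2: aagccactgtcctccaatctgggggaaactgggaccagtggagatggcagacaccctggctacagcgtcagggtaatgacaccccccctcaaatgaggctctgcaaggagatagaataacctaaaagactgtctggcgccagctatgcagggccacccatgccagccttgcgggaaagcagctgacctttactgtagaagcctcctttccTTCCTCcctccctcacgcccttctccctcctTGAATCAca
A GAGGAA match stood in a window of 6 of the 8 genes, namely Fcgr1, Fcgr3, Fcgr4, Trem1, Trem2 and the second start of Syk, against 23.3% of all 32851 promoter windows. Fcgr3 and Syk had 2 windows each, and a gene was counted if either held a match. Shares of all windows are per single window, so the 2 kinds of share differ in unit. The match ended 50 bases before the start of Fcgr1, 1 base before that of Fcgr3, 157 bases before that of Trem1 and 35 bases before that of Trem2. TTCNNNGAA was found in Fcgr1, 101 to 109 bases before the start, and in Trem1, 163 to 171 bases before it, next to the GAGGAA match, and in 7.02% of all windows. TGANTCA was found, as TGAATCA, in Trem2 alone of the 8 genes, 3 to 9 bases before the start, and in 6.75% of all windows. No match of one motif overlapped a match of another in these genes. The windows of Trem1, which rose, and Trem2, which was not called, both held GAGGAA, and those of Fcgr2b and Fcer1g held none of the 3 motifs although both genes rose. These matches are a description of letters only.

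The activating receptors were all higher in vesicle-treated retina. Fcgr3 (ENSMUSG00000059498), the low-affinity receptor that needs the common gamma chain, was at 84.5, 81.8 and 50.6 CPM in the vesicle libraries, against 9.4, 6.51 and 7.33 CPM in the PBS libraries. Vesicle library 3 was the lowest of its group and still lay well above every PBS library. The log2 fold change was 3.22 ± 0.24 (edgeR adjusted p = 0.00017). Fcgr4 (ENSMUSG00000059089), a receptor of monocytes and neutrophils, was at 17.5, 13 and 12.8 CPM with vesicles, against 2.15, 1.03 and 1.62 CPM with PBS. The groups did not overlap, and the log2 fold change was 3.17 ± 0.29 (edgeR adjusted p = 0.00017). Fcgr1 (ENSMUSG00000015947), the high-affinity receptor, was at 20.8, 13.3 and 10.8 CPM with vesicles, against 4.96, 2.19 and 3.06 CPM with PBS. Vesicle library 1 and PBS library 1 were the highest of their groups. Its log2 fold change, 2.14 ± 0.35 (edgeR adjusted p = 0.0044), was the smallest of the 8 that were called.

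The inhibitory receptor rose as well. Fcgr2b (ENSMUSG00000026656) was at 63.3, 64 and 47.6 CPM in vesicle-treated retina, against 5.42, 3.22 and 4.33 CPM with PBS. Each vesicle library held several times the level of any PBS library. The log2 fold change of 3.75 ± 0.21 (edgeR adjusted p = 3.5e-05) stood at rank 6 by p among all tested retina genes. Summed counts of the 3 activating receptors over Fcgr2b counts gave ratios of 1.94, 1.69 and 1.56 in the vesicle libraries, against 3.05, 3.02 and 2.78 in the PBS libraries. Every vesicle library had a lower ratio than every PBS library. The difference in log2 ratio was -0.77, with means of 0.78 ± 0.16 with vesicles and 1.56 ± 0.07 with PBS (SD, n = 3 each), and a two-sided exact permutation test gave p = 0.1, the smallest that 3 against 3 libraries allow. The ratio is of counts not divided by gene length, and 9.58% of the 50-base stretches of Fcgr3 transcripts in GENCODE vM21 also occur in Fcgr2b, so how reads were split between these genes is uncertain. Among Fcgr2b stretches, 2.92% occur in Fcgr3, and 2.68% of its exon length lies under Gm38204 on the opposite strand.

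**Figure D1:**
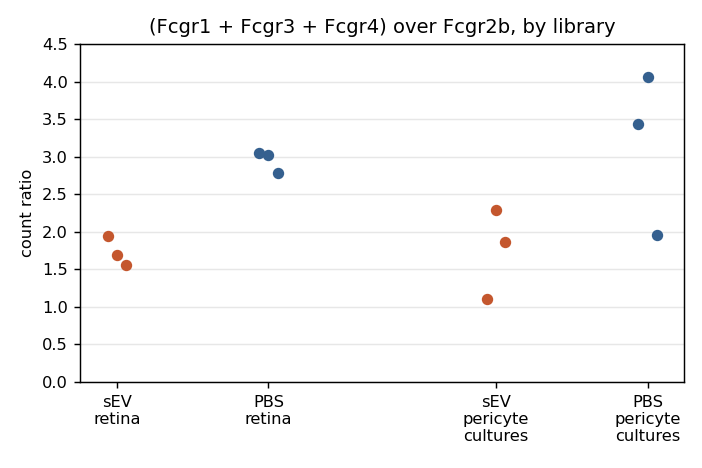
Counts of Fcgr1, Fcgr3 and Fcgr4 together over counts of Fcgr2b (vertical axis, linear, no unit) in each library, 3 points per group, with vesicle groups (sEV) left of PBS groups for retina and pericyte-labelled cultures. Retina ratios were between 1.56 and 1.94 with vesicles and between 2.78 and 3.05 with PBS, and the culture groups overlapped.

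Both ITAM adaptors were higher with vesicles in the retina. Tyrobp (ENSMUSG00000030579), the DAP12 adaptor, was at 104, 99.7 and 52.2 CPM in the vesicle libraries, against 10.8, 12.3 and 11.8 CPM in the PBS libraries. Vesicle library 3 was again the lowest of its group, and the PBS libraries were close to each other. The log2 fold change was 2.88 ± 0.28 (edgeR adjusted p = 0.0012). Fcer1g (ENSMUSG00000058715), the common gamma chain, was at 62.7, 50.1 and 37.8 CPM with vesicles, against 7.7, 5.17 and 6.01 CPM with PBS. The groups lay far apart, with a log2 fold change of 3 ± 0.22 (edgeR adjusted p = 0.00012). Syk (ENSMUSG00000021457), the kinase that reads the phosphorylated motif, was at 14.1, 15 and 11.4 CPM with vesicles, against 1.63, 0.851 and 2.16 CPM with PBS. Its log2 fold change was 3.12 ± 0.31 (edgeR adjusted p = 0.00029), and its groups did not overlap.

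The TREM receptors gave different results in the retina. Trem1 (ENSMUSG00000042265), the inflammatory receptor, was at 25.2, 32.9 and 18.3 CPM in the vesicle libraries, against 0.326, 0.182 and 1.38 CPM in the PBS libraries. The PBS libraries held 5, 3 and 23 counts of it, so library 3 carried most of the PBS signal. The log2 fold change of 5.3 ± 0.59 (edgeR adjusted p = 0.0025) was the largest of the 9 genes, and it ran from 4.79 to 6.61 over 11 alternative fits, all called. Trem2 (ENSMUSG00000023992), the lipid-sensing receptor, was at 2.68, 2.09 and 1.67 CPM with vesicles, against 4.76, 3.16 and 4.15 CPM with PBS. All vesicle libraries were below all PBS libraries, from 27 to 42 counts against 52 to 73. The log2 fold change was -0.91 ± 0.3, with a 95% interval from -1.58 to -0.23 and an edgeR adjusted p of 0.072. It kept its sign in all 11 alternative fits and was called in 0 of them, with adjusted p from 0.07 to 0.27.

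**Figure D2:**
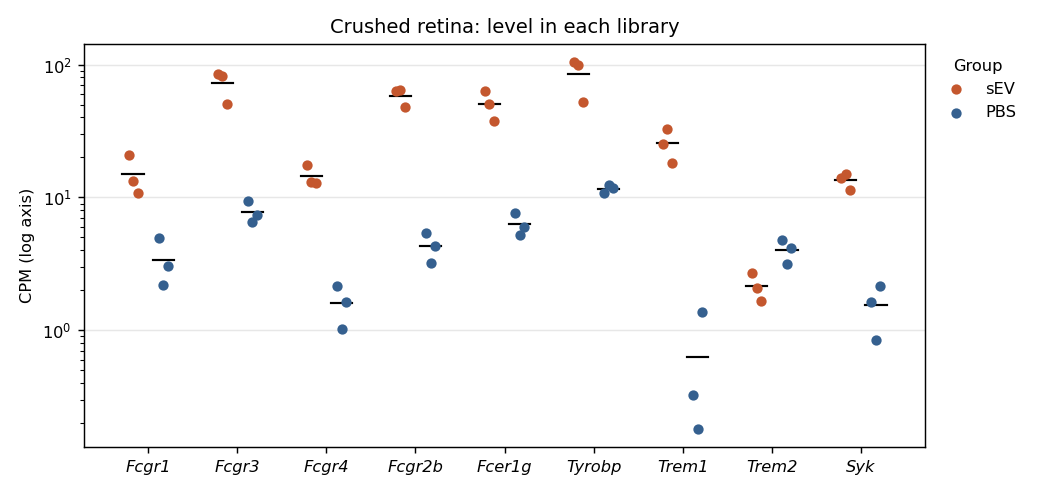
CPM (logarithmic vertical axis) of the 9 genes in each retina library, with the 3 vesicle libraries (sEV) left of the 3 PBS libraries for each gene and short lines at the group means. For 8 genes all vesicle points lie above all PBS points, and for Trem2 the vesicle points, 1.67 to 2.68 CPM, lie below the PBS points, 3.16 to 4.76 CPM.

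The groups did not overlap for any of the 9 genes in the retina, which held for 35.7% of all tested retina genes. Calls of the 8 genes that rose were kept in all 11 alternative fits, the fit without the lens-rich libraries among them. Together the 9 genes took 0.0391%, 0.0349% and 0.0252% of counts in the vesicle libraries, against 0.00463%, 0.00355% and 0.00429% with PBS. The median log2 fold change of the 9 was 3.12, against -0.02 over all tested genes. The 9 were chosen with earlier results known, so this comparison is not a test.

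Levels were also set beside each other per kilobase of exon (union of GENCODE vM21 exons), an order that depends on the length chosen. With vesicles, Tyrobp came first at 128 ± 43.2 CPM per kilobase, and in every library it was above Fcer1g at 57.4 ± 14.2 CPM per kilobase (SD, n = 3). Fcgr3 followed at 41.7 ± 10.9 CPM per kilobase, overlapping Fcer1g. Fcgr4, Fcgr2b, Trem1 and Fcgr1, from 11.5 down to 5.79 CPM per kilobase, overlapped as neighbours. Syk at 1.44 ± 0.2 and Trem2 at 0.433 ± 0.102 CPM per kilobase came last on this measure and stood apart. With PBS, Tyrobp at 17.4 ± 1.16, Fcer1g at 7.2 ± 1.48 and Fcgr3 at 4.46 ± 0.859 CPM per kilobase again led, each above the next in all libraries. Trem2 at 0.814 ± 0.163 CPM per kilobase came sixth with PBS, between Fcgr4 and Fcgr2b, and overlapped both. The annotation behind the counts was not stated, so lengths are approximate. The union joins exons of all annotated transcripts and can exceed the length of the transcripts present. It was 667 bases for Tyrobp, 4946 for Trem2, 5790 for Fcgr2b and 9362 for Syk.

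Markers of monocytes, macrophages and neutrophils moved with these genes, and some markers of other cell types changed too. Over all tested retina genes 10.7% were called higher and 5.19% lower. Of 12 tested markers of monocytes and macrophages 11 rose, Ptprc, the pan-leukocyte antigen CD45, by 3.66 ± 0.23 on the log2 scale, and their summed level was 786 to 1190 CPM with vesicles, against 74.9 to 123 CPM with PBS. All 8 tested neutrophil markers rose, with a summed level of 353 to 783 CPM, against 4.32 to 16.6 CPM. Homeostatic microglia markers summed to 49 to 171 CPM with vesicles and 77 to 81.2 CPM with PBS, and 4 of 8 tested fell, P2ry12, Siglech and Gpr34 among them, while the other 4 were not called. The upper end of the vesicle range came mostly from Olfml3, which ran from 4.94 to 126 CPM over the vesicle libraries, against 4.83 to 5.59 CPM with PBS. Of 11 retinal neuron markers 8 fell (median log2 fold change -0.66), with summed levels of 51100 to 62400 CPM with vesicles and 76400 to 79100 CPM with PBS. Of 7 glial markers Gfap and Sox9 rose and Aqp4 fell, with sums of 834 to 1240 CPM with vesicles and 1200 to 1780 CPM with PBS. Of 8 fibroblast markers Lum and Fn1 rose, with sums of 80.1 to 211 CPM with vesicles and 34.9 to 50 CPM with PBS. None of the T, B and NK cell markers and none of the mast cell markers passed the low-count filter. The T, B and NK cell markers still summed to 2.47 to 6.12 CPM with vesicles, against 0.669 to 1.56 CPM with PBS. Mast cell markers summed to 0 to 1.97 CPM with vesicles and 0.261 to 1.56 CPM with PBS. Of the 6 listed, Ms4a2 was at 0 in all retina libraries, and Fcer1a had 1 count over the vesicle libraries and 0 with PBS. The others were detected in both groups. Tpsb2 had 17 counts with vesicles and 10 with PBS, Cpa3 11 and 12, Mcpt4 6 and 6, and Cma1 5 and 7. The part of any cell type in the change of the 9 genes was not tested.

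In the pericyte-labelled cultures all 9 genes were low, at or below 3.45 CPM in every library. Syk was at 2.98, 3.45 and 3.07 CPM with vesicles, against 1.43, 2.61 and 2.24 CPM with PBS. The vesicle libraries lay above the PBS libraries, but the log2 fold change of 0.6 ± 0.25 (95% interval 0.08 to 1.12) missed the threshold (edgeR adjusted p = 0.1). Fcer1g was at 2.33, 2.44 and 1.99 CPM with vesicles, against 1.32, 1.55 and 1.89 CPM with PBS, also without overlap (log2 fold change 0.5 ± 0.27, 95% interval -0.06 to 1.07, edgeR adjusted p = 0.23). Groups that do not overlap were found for 33.8% of the tested genes of that table, and for 2 of the 7 genes here. Fcgr2b was at 2.45, 1.4 and 1.32 CPM with vesicles, against 0.726, 0.535 and 1.51 CPM with PBS. PBS library 3 lay among the vesicle libraries, and the log2 fold change was 0.89 ± 0.4 (95% interval 0.05 to 1.72, edgeR adjusted p = 0.14). Without PBS library 3 it was 1.43 (edgeR adjusted p = 0.032).

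None of the other 6 genes was called in the cultures either. Fcgr3 was at 1.79, 1.83 and 1.56 CPM with vesicles, against 1.66, 1.78 and 1.67 CPM with PBS, with a log2 fold change of 0.02 ± 0.28 (95% interval -0.56 to 0.6). Tyrobp was at 2.39, 1.56 and 1.35 CPM with vesicles, against 1.06, 2.64 and 1.51 CPM with PBS, and the groups overlapped widely (log2 fold change 0.02 ± 0.34, 95% interval -0.69 to 0.74). Trem2 was at 1.76, 1.09 and 1.16 CPM with vesicles, against 1.61, 1.66 and 1.27 CPM with PBS (log2 fold change -0.18 ± 0.32). These groups overlapped as well. Fcgr4 was at 0.268, 0.876 and 0.727 CPM with vesicles, against 0.648, 0.357 and 1.05 CPM with PBS (log2 fold change -0.14 ± 0.54). Fcgr1 and Trem1 did not pass the low-count filter. Fcgr1 had 21, 18 and 6 counts with vesicles, against 7, 1 and 8 with PBS, and Trem1 had 18, 10 and 15 counts, against 9, 5 and 2. Fitted with no filter, Fcgr1 had a log2 fold change of 1.54 ± 0.84 (edgeR adjusted p = 0.31) and Trem1 of 1.44 ± 0.85 (edgeR adjusted p = 0.35). These were the largest culture values of the 9 genes in that fit, and also those with the largest errors.

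**Figure D3:**
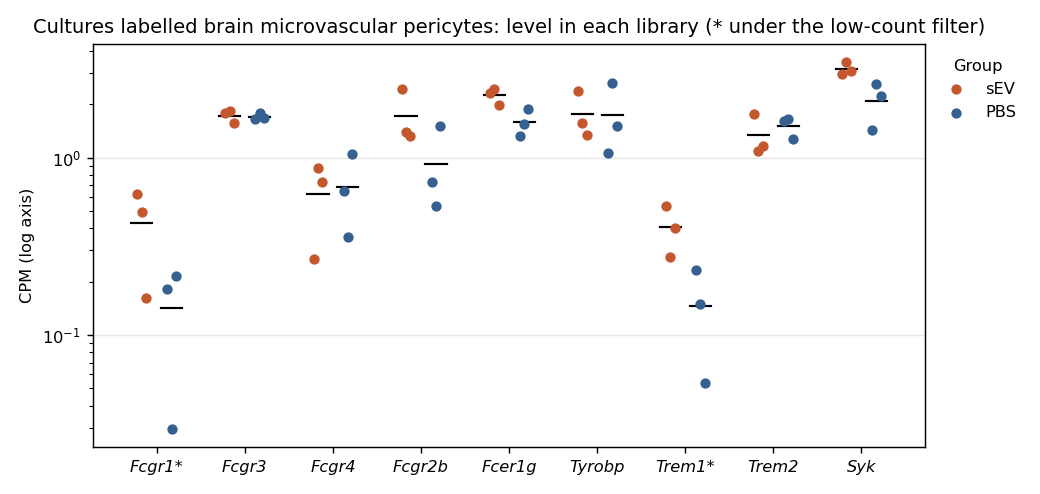
CPM (logarithmic vertical axis) of the 9 genes in each pericyte-labelled library, with the 3 vesicle libraries (sEV) left of the 3 PBS libraries for each gene and short lines at the group means. All points lie at or below 3.45 CPM, and groups are apart for Syk and Fcer1g among the genes that passed the filter.

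The activating to inhibitory count ratio in the cultures was 1.1, 2.29 and 1.86 with vesicles, against 3.43, 4.06 and 1.95 with PBS. One vesicle library lay above the lowest PBS library. The difference in log2 ratio was -0.84, with means of 0.74 ± 0.55 with vesicles and 1.59 ± 0.55 with PBS (SD, n = 3 each; two-sided exact permutation p = 0.2, smallest possible 0.1).

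The labelled identity of the cultures was checked against marker genes. Pdgfrb, a defining receptor of mural cells, was at 70.8 ± 4.89 CPM with vesicles and 59.7 ± 3.48 CPM with PBS, and Acta2, smooth muscle actin, at 587 ± 15.5 and 572 ± 22.6 CPM in those groups. Cspg4, another mural cell gene, was at 17.5 ± 1.54 CPM with vesicles and 11.9 ± 0.9 CPM with PBS. Notch3 was at 18.6 ± 1.57 CPM with vesicles and 25 ± 1 CPM with PBS. Anpep and Vtn averaged 4.12 and 4.05 CPM with vesicles, against 5.97 and 3.93 CPM with PBS. Tagln averaged 1.57 and 1.62 CPM in those groups. Rgs5, Kcnj8, Abcc9, Des and Myh11, also mural cell genes, each averaged under 1 CPM in both groups. Fibroblast genes were present, Col1a1 at 177 ± 20.1 CPM with vesicles and 200 ± 13.9 CPM with PBS. Astrocyte genes were high, with the water channel gene Aqp4 at 623 ± 29 CPM with vesicles and 477 ± 12.4 CPM with PBS, and the glial filament gene Gfap at 200 ± 7.18 and 215 ± 6.38 CPM. Of 7 tested Muller glia and astrocyte markers Aqp4 was called higher and Sox9 lower, and their summed level was 2260 to 2280 CPM with vesicles and 2130 to 2210 CPM with PBS. Leukocyte markers were mixed, with Ccr2, S100a9, Retnlg, Cxcr2 and Ly6g at 0 in all 6 libraries. Itgam, Aif1, Mrc1, Ms4a7 and Cd163 each averaged under 1 CPM in both groups. Cd68 was at 6.71 ± 1.16 CPM with vesicles and 4.95 ± 0.412 CPM with PBS, and Csf1r at 4.5 ± 0.739 and 4.64 ± 0.291 CPM. Ptprc held 41, 39 and 41 counts with vesicles, against 2, 13 and 12 with PBS, and was called higher (log2 fold change 2.16 ± 0.56, edgeR adjusted p = 0.0085). Cd14 and Adgre1 were the other 2 of 11 tested monocyte and macrophage markers called higher. Cd14 averaged 42.9 CPM with vesicles and 14.4 CPM with PBS, and Adgre1 3.9 and 2.25 CPM. Summed, that marker list was at 500 to 670 CPM with vesicles and 460 to 486 CPM with PBS, mostly from Lgals3 and Lyz2. The part of such cells in the values of the 9 genes was not tested.

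The vesicle effects of the 2 settings differed for 6 of the 7 genes tested in both tables. In a joint limma voom fit the retina effect exceeded the culture effect by 3.36 ± 0.65 on the log2 scale for Fcgr4, 3.19 ± 0.45 for Fcgr3 and 2.83 ± 0.5 for Fcgr2b (limma adjusted p = 0.003, 0.00036 and 0.0017). The excess was 2.71 ± 0.6 for Tyrobp, 2.54 ± 0.44 for Syk and 2.47 ± 0.4 for Fcer1g (limma adjusted p = 0.0075, 0.0016 and 0.00095). For Trem2 the difference was -0.69 ± 0.42 and was not called (limma adjusted p = 0.33). Over all 13712 genes tested in both, the difference was called for 12.1%, and for 7.64% with the retina effect above the culture effect. The retina and the cultures also differed in time after treatment, 1 day and 12 hours.

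**Figure D4:**
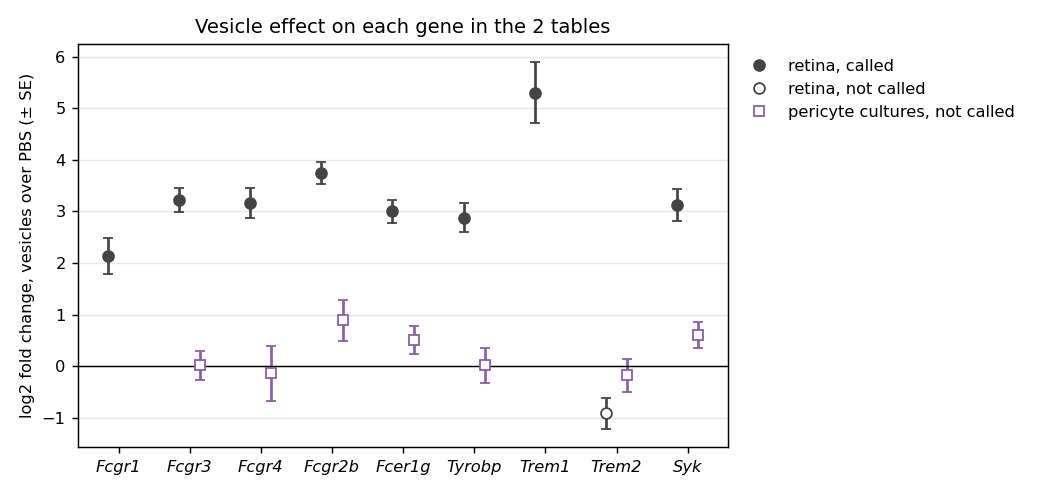
Log2 fold change, vesicles over PBS, with its standard error for each gene, with retina as circles and pericyte-labelled cultures as squares, filled where called. Retina values of 8 genes lie between 2.14 and 5.3, Trem2 lies at -0.91, and culture values of the 7 tested genes lie between -0.18 and 0.89.

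Genes of the same pathway were followed through 7 lists. Their retina counts stand beside 10.7% of all tested retina genes called higher and 5.19% lower, with an all-gene median of -0.02. Of 7 tested Src family kinases, the enzymes that phosphorylate ITAMs, 3 rose in the retina. Lyn, a kinase of blood cells, was at 34.3 ± 6.24 CPM with vesicles and 5.89 ± 2.32 CPM with PBS (log2 fold change 2.54 ± 0.27, edgeR adjusted p = 0.00089), and Fgr, a kinase of myeloid cells, rose by 3.81 ± 0.61 on the log2 scale. Lck, a T cell kinase, was at 1.79 ± 0.625 and 0.809 ± 0.291 CPM and was not called, and the widely expressed Fyn, Src and Yes1 were not called either. The list's median log2 fold change was 1.14.

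Among 22 genes that act below Syk, 9 rose in the retina and the other 13 were not called (median 0.78). Vav1, a guanine exchange factor of blood cells, was at 5.72 ± 1.66 CPM with vesicles and 0.374 ± 0.0773 CPM with PBS (log2 fold change 3.91 ± 0.38, edgeR adjusted p = 0.00025). Lcp2, the adaptor SLP-76, rose by 3.73 ± 0.42, Btk, a Tec family kinase, by 3.35 ± 0.43 and Prkcd, a protein kinase C, by 1.94 ± 0.24 on the log2 scale. Widely expressed relatives were close to 0, with log2 fold changes of -0.01 ± 0.22 for Plcg1 and 0.13 ± 0.13 for Grb2.

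Genes that restrain ITAM signalling were higher too. Of 18 tested, 12 rose and the other 6 were not called (median 2.2). Pilra, an inhibitory receptor, was at 19.2 ± 4.58 CPM with vesicles and 0.849 ± 0.318 CPM with PBS (log2 fold change 4.49 ± 0.31, edgeR adjusted p = 6.1e-05). Siglece, a sialic acid-binding inhibitory lectin, rose by 3.77 ± 0.3, Clec12a, an inhibitory C-type lectin, by 3.85 ± 0.4 and Ptpn6, the phosphatase SHP-1, by 2.59 ± 0.32. Sirpa, an inhibitory receptor also found on neurons, was at 61.6 ± 1.65 CPM with vesicles and 65.8 ± 7.66 CPM with PBS and was not called.

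Other receptors that borrow Tyrobp or Fcer1g were mostly higher as well. Of 13 tested, 11 rose, Cd300lb was not called (3.34 ± 0.9, edgeR adjusted p = 0.051) and Siglech fell (median 4.56). Clec5a, a Tyrobp-coupled lectin, was at 23.9 ± 4.48 CPM with vesicles and 1.26 ± 0.636 CPM with PBS (log2 fold change 4.22 ± 0.33, edgeR adjusted p = 0.00012). Clec4n and Clec4d, Fcer1g-coupled lectins that sense fungal and mycobacterial sugars, rose by 5.64 ± 0.42 and 5.52 ± 0.4 on the log2 scale. Pilrb1, the activating partner of Pilra, rose too, with 307 counts over the vesicle libraries and 4 over the PBS libraries. Pilrb and Sirpb1 genes have near-identical copies, so their counts are uncertain. Siglech, the Tyrobp-coupled lectin of microglia, was at 0.335 ± 0.0307 CPM with vesicles and 3.28 ± 0.296 CPM with PBS. It fell by 3.26 on the log2 scale, and so did not follow the adaptor it pairs with.

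Genes listed as other Fc receptors, Fc receptor-like genes among them, were mostly scarce. Of 13 listed only 4 passed the filter in the retina, and 3 of these rose (Fcrls, Fcrlb and Trim21). Trim21, the cytosolic receptor for antibody bound to viruses, was at 7.86 ± 2.17 CPM with vesicles and 3.65 ± 0.621 CPM with PBS. Fcgrt, the neonatal Fc receptor that recycles IgG, was at 19.4 ± 5.2 and 14.3 ± 2.74 CPM and was not called (0.44 ± 0.22, edgeR adjusted p = 0.21). Of 13 immunoglobulin constant and joining chain genes 3 were tested, Ighg2c, Ighm and Jchain, and none was called by edgeR. Ighg2c, the only IgG gene of these, was at 1.61 ± 0.294 CPM with vesicles and 2.21 ± 0.9 CPM with PBS. Igkc, a light chain gene under the filter, had 217 counts over the vesicle libraries and 3 with PBS. Its vesicle libraries were uneven, from 0.247 to 11.6 CPM. Reported TREM ligands were present and not called, Apoe at 454 ± 87.4 CPM with vesicles and 443 ± 123 CPM with PBS, and Pglyrp1, a ligand of the TREM-1 receptor, at 11.4 ± 1.27 and 10.6 ± 10.4 CPM.

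In the pericyte-labelled cultures some pathway genes were called although none of the 9 genes was. The counts stand beside 10.9% of all tested genes called higher and 8.9% lower, and those of the restraining genes and partner receptors lay near these shares. Of 19 tested genes that act below Syk, 9 rose and Vav3 fell, with a median of 0.46. Lcp2 was at 1.24 ± 0.123 CPM with vesicles and 0.36 ± 0.144 CPM with PBS (log2 fold change 1.77 ± 0.47, edgeR adjusted p = 0.0092), Bcl10, an NF-kB adaptor, at 63.1 ± 3.82 and 46 ± 3.51 CPM, and Prkcd at 29.2 ± 1.43 and 19.7 ± 1.48 CPM. Lyn was at 22.1 ± 0.465 CPM with vesicles and 13.8 ± 1.13 CPM with PBS (log2 fold change 0.68 ± 0.1, edgeR adjusted p = 2.2e-05), and it and Src were the 2 of 6 tested Src family kinases that rose. Among 15 tested restraining genes Dok1 and Cblb rose and Sirpa fell by 0.43 on the log2 scale. Clec4e, the Fcer1g-coupled receptor Mincle, was the only 1 of 7 tested partner receptors called, at 3.54 ± 0.755 CPM with vesicles and 0.776 ± 0.352 CPM with PBS (log2 fold change 2.2 ± 0.32, edgeR adjusted p = 2.5e-05). Trim21 was at 48.8 ± 2.53 CPM with vesicles and 13.9 ± 0.996 CPM with PBS (log2 fold change 1.81 ± 0.08, edgeR adjusted p = 6.9e-13).

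**Figure D5:**
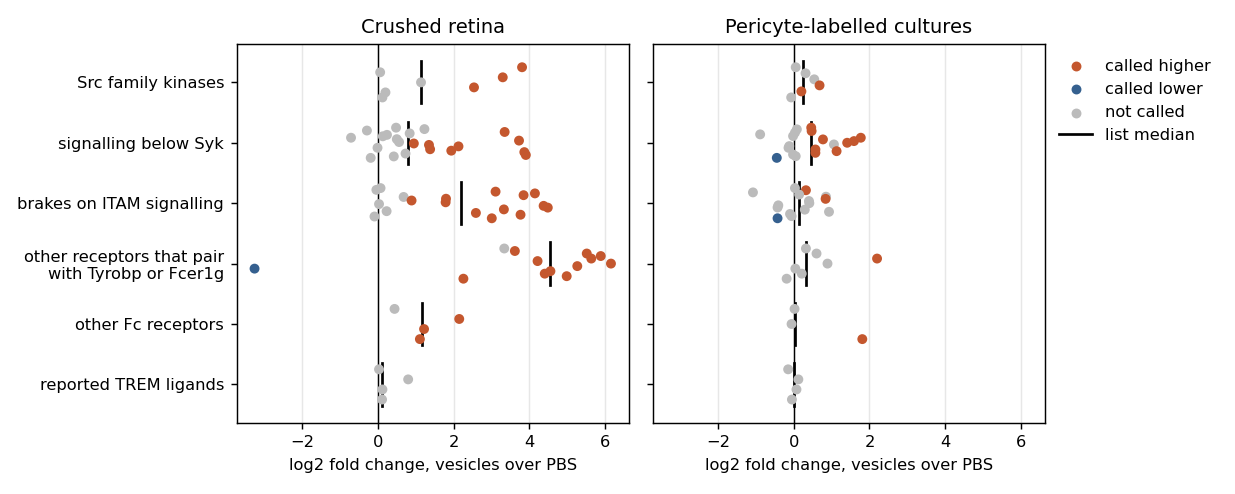
Log2 fold change, vesicles over PBS, of each tested gene of 6 pathway lists in the retina (left) and the pericyte-labelled cultures (right), with each point 1 gene, coloured by call, and vertical black lines at list medians. In the retina the receptors that pair with Tyrobp or Fcer1g have a median of 4.56 with Siglech alone below 0, and in the cultures the medians lie between 0.01 and 0.46.

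The retina genes closest to the 9 in pattern were looked for among 14506 other genes with a mean of at least 1 CPM. Likeness was the root-mean-square distance, over the 6 libraries, between log2(CPM + 0.5) centred on its mean and the median centred profile of the 9 genes. Snx20, a sorting nexin of leukocytes, was closest at 0.111, with 15.7 CPM with vesicles and 1.57 CPM with PBS on average. Cd177, a neutrophil surface protein, followed at 0.113, then Cd244a at 0.119, Clec12a at 0.125 and Vav1 at 0.132. These 4 had 3, 8, 27 and 18 counts over the PBS libraries. Their log2 fold changes were 5.87 ± 0.57, 4.58 ± 0.46, 3.85 ± 0.4 and 3.91 ± 0.38. At so low a PBS level the added 0.5 CPM shrinks the difference, so a small distance does not mean an equal fold change. Among the 9 genes themselves the distance was 0.0924 for Fcer1g and 0.135 for Fcgr3, and it was 0.946 for Trem1 and 1.86 for Trem2. In the cultures the median centred profile of the 7 tested genes ran from -0.39 to 0.24, against -1.78 to 1.73 in the retina. The 5 genes closest to the culture profile, Gm9892, Gm10052, Ankrd39, Stk17b and Ak6, lay within 0.0626 of it. Their log2 fold changes were between 0.3 and 0.42, and Stk17b and Ak6 were called higher (edgeR adjusted p = 0.008 and 0.046).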

How the data were processed

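Total RNA of 12 mouse libraries was counted per gene. Per the submitters' processing notes the authors used FastQC 0.11.8, HISAT2 2.0.5, featureCounts 1.5.0-p3 and limma, in roles not stated. The deposited tables hold raw counts, whole numbers in each of the 12 columns. Genome build, annotation and strand setting are not given in the sources used here. Pericyte columns were matched by the labels' descriptions, and retina columns by inference from short names, to groups only.

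Each table was fitted alone in R 4.3.3 with edgeR 4.0.16 (filterByExpr with a minimum count of 10, TMM, robust quasi-likelihood F test, 4 residual degrees of freedom). Standard errors were derived from each log2 fold change and its F statistic. Alternatives used DESeq2 1.42.0, limma 3.58.1 voom, other scaling, no filter, a replicate block and libraries left out. Effects of the tables were compared in a joint limma voom fit with a weight per table. The code was tested on simulated counts. Replicate libraries differed by more than sampling noise (lowest chi-squared per degree of freedom 5.87). Count floors cover counting error only, since reads had no molecular identifiers.

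The 9 genes and all lists were chosen with earlier results of these data known. Non-members were named by order of p in the retina, up to 4 per list, and more where a small count is spelled out. Genes given as examples of no change, as markers or in the cultures were chosen after their values were seen. Retina lengths, overlaps and shared stretches came from GENCODE vM21 (GRCm38), and promoters from RefSeq. Single values of some genes on the lists are not reported here.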

Additional observations from a re-analysis of the deposited data

Results flagged for a closer look

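A joint limma voom test called the difference between the retina and culture vesicle effects for 6 of the 7 genes tested in both. P-values were adjusted over 13712 genes, of which 12.1% were called, 7.64% with the retina effect above the culture effect. The retina effect minus the culture effect, on the log2 scale, was 3.19 for Fcgr3, 3.36 for Fcgr4, 2.83 for Fcgr2b, 2.47 for Fcer1g, 2.71 for Tyrobp and 2.54 for Syk. All 6 stayed called in each of 14 alternative fits, with limma adjusted p up to 0.041 for Tyrobp and up to 0.016 for the others. In some of those fits 7 of the 9 genes were called, for example with no low-count filter. Fcgr1 and Trem1 had no value in the main fit.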

How the results depend on the processing

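In the retina the 8 genes that rose kept their call in all 11 alternative fits (other scaling, no filter, DESeq2, limma voom, each library left out, and the lens-rich libraries left out). Trem2 was called in 0 of 11. Over all genes the retina test called 2449, and 1420 without the lens-rich libraries. With 1 library left out it called between 1328 and 2909 genes, fewest without PBS library 2 (1328), vesicle library 2 (1381) or vesicle library 1 (1401). In the cultures leaving out 1 library gave 0 to 1 genes of the 9 called higher, the 1 being Fcgr2b without PBS library 3. Effects near 0 changed sign there when 1 library was left out, with log2 fold changes from -0.03 to 0.09 for Fcgr3, from -0.46 to 0.31 for Fcgr4 and from -0.25 to 0.45 for Tyrobp. The retina ratio difference ran from -0.86 to -0.7 and the culture one from -1.16 to -0.54 with 1 library left out.

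Replicate numbers were shared by the culture columns, but same-numbered libraries did not deviate together (Pearson r of 0.03, 0.02 and -0.02 across genes). With a replicate block 3287 culture genes were called against 3365, and 0 of the 7 tested here. Retina columns carry no replicate numbers of the labels, so no block was fitted there. Culture counts of 1 to 39 per library for Fcgr1, Fcgr4 and Trem1 limit what could be seen at this depth.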

Other observations

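Igkc, the kappa light chain constant gene of B and plasma cells, had 217 counts over the vesicle libraries of the retina and 3 over the PBS libraries. Its vesicle level was 4.58 ± 6.11 CPM (SD, n = 3), from 0.247 to 11.6 CPM, and it did not pass the low-count filter. Pglyrp1, at 10.6 ± 10.4 CPM in the PBS retina libraries, ran there from 4.18 to 22.5 CPM.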
